A study of Mus musculus with 4 samples.

Results

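The B-cell receptor signalling chains and pan-B surface genes are 9 genes, Cd79a, Cd79b, Cd22, Cd72, Ms4a1, Fcrla, Fcrl1, Cr2 and Fcer2a, taken by symbol from the 23312 genes measured in each library. All 9 were found in the 4 libraries, and 8 of them averaged at least 1 FPKM (fragments per transcript length, scaled to the library's mapped fragments) over the 4 libraries, the filter used for testing. Cr2 did not pass and has its values only. The libraries were made from polyadenylated RNA of B220+CD43+ pro-B cells, sorted from the bone marrow of C57BL/6 mice. Both groups carried RERTCre, a Cre recombinase that tamoxifen switches on, and both were injected with 1 mg tamoxifen on days 1, 2, 4 and 7 and analysed on day 10. The groups were 2 libraries from mice with loxP-flanked Cnot3 (Cnot3 fl/fl) and 2 libraries from mice with wild-type Cnot3 (Cnot3 +/+). The series' design text calls the replicates individual mice, and the sources used here do not give the age of the mice or the cells in which the Cre is active. Cnot3 is a subunit of the CCR4-NOT complex, which removes the poly(A) tails of mRNAs.

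The B-cell receptor is a membrane immunoglobulin that binds antigen but has almost no tail inside the cell. It signals through the heterodimer of Cd79a (Ig-alpha) and Cd79b (Ig-beta), whose tails carry tyrosine activation motifs that the kinases Lyn and Syk act on, and pro-B cells place this heterodimer on the surface before they make light chains. Co-receptors tune the signal. Cr2, with Cd81, lowers the threshold, whereas Cd22 and Cd72 carry inhibitory tyrosine motifs that recruit the phosphatase Ptpn6 (SHP-1). The promoter of Cd79a is a known target of the B-lineage factors Ebf1, Pax5 and Tcf3 (E2A).

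The promoter windows of Cd79a, Fcrla and Cd22 are shown here, since Cd79a and Fcrla were lower in Cnot3 fl/fl libraries and Cd22 was not. They run from 250 bases before to 50 bases after the start site and come from RefSeq on GRCm38.p6, which held windows for 7 of the 9 genes. Cd79b and Ms4a1 had none matched. Capitals mark matches, on either strand, to the E-box CANNTG bound by Tcf3, to the Ebf1 palindrome (TCCC and GGGA with any 2 bases between them) and to GGGAAT, an arm of the longer Ebf1 site. The Cd79a window is chr7:24897247-24897546 on the plus strand, the Fcrla window chr1:170927534-170927833 on the minus strand and the Cd22 window chr7:30878979-30879278 on the minus strand.
Cd79a: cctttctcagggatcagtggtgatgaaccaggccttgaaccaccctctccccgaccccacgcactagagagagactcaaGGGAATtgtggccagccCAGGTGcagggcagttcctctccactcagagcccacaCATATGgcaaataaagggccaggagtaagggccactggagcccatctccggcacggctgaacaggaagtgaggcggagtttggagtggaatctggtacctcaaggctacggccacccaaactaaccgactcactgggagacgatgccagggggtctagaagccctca
Fcrla: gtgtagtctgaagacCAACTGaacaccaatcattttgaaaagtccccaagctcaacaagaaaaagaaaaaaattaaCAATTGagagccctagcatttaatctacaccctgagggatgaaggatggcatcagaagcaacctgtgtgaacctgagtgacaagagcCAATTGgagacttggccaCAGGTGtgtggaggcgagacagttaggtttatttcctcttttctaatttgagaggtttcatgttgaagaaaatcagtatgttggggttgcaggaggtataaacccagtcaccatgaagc
Cd22: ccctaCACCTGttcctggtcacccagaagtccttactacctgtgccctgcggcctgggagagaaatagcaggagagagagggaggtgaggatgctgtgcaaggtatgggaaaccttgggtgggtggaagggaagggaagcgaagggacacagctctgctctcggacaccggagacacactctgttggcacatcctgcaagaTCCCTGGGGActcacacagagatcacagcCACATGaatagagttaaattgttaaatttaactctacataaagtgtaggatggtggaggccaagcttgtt
The Cd79a window held GGGAAT with its match starting at -171 from the start site and E-boxes at -154 and -117. The Fcrla window held 4 E-boxes, the nearest at -69, and the Cd22 window held the palindrome at -49 and 2 E-boxes. Of 32851 RefSeq promoter windows of this length, 72.3% held an E-box, 13.1% held GGGAAT and 0.904% held the palindrome. A match is a description of letters and not a measured binding site.

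The deposited values hold no read counts, so the absolute depth is unknown. From the spacing of the lowest values, the depth of the other libraries relative to Cnot3 fl/fl replicate 1 was estimated as 1.05 for Cnot3 fl/fl replicate 2, as 0.780 for Cnot3 +/+ replicate 1 and as 0.940 for Cnot3 +/+ replicate 2. From 14684 to 15126 genes were above 0 in a library. Cnot3 itself had 39.0 and 40.3 FPKM in the Cnot3 fl/fl libraries, against 41.6 and 39.3 FPKM in the Cnot3 +/+ libraries, and since the sources used here do not name the flanked exons, a value summed over all of its exons cannot check the labels. Cnot3 +/+ replicate 1 stood apart in sex-linked genes, among them the Y-linked Eif2s3y at 29.3 FPKM. Xist had 62.7 and 54.3 FPKM in Cnot3 fl/fl libraries, against 0.024 and 63.1 FPKM in Cnot3 +/+ replicates 1 and 2.

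Of the 8 genes tested, Cd79a and Fcrla fell in Cnot3 fl/fl libraries, 0 rose and 6 did not pass (limma on log2(FPKM + 1) values, adjusted p under 0.05). Among all 11017 genes tested, 3.28% were called lower and 6.22% higher. At an unadjusted p under 0.05, 4 of the 8 genes were lower and 0 higher, where 15.3% of all genes tested were lower and 18.5% higher. The authors' deposited table marked Cd79a and Fcrla as significant and none of the others. That table marked 2.51% of the 12154 genes it tested as significant and lower in Cnot3 fl/fl, and 4.08% as higher. The median log2 fold change of the 8 genes was -0.27, beside -0.01 over all genes tested. In 6 of the 8 genes the higher Cnot3 fl/fl library was still under the lower Cnot3 +/+ library, where this held for 31.7% of all genes tested. The summed level of the 9 genes was 502.0 and 499 FPKM in Cnot3 fl/fl libraries, against 641 and 736 FPKM in Cnot3 +/+ libraries. With any single library left out, 0 of the 8 genes were called, and over all genes between 2 and 34 were called higher and between 0 and 20 lower, so the calls of Cd79a and Fcrla rest on all 4 libraries. The same held for every call named below in the lists of signalling, inhibitory, surface and transcription factor genes. With no filter on low values, 4 genes were called higher and 1 lower over the whole table, and 0 of the 9. In sorted bulk samples, fewer cells of a type and less RNA per cell cannot be told apart.

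**Figure D1:**
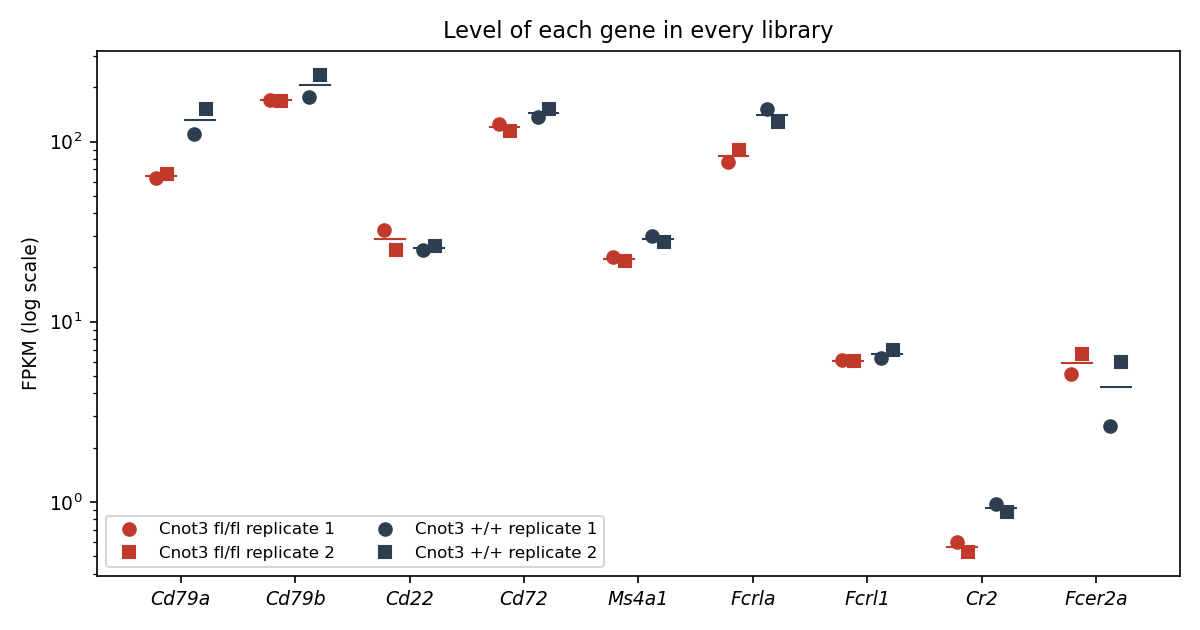
FPKM of the 9 genes in each library on a log axis; points are libraries, with Cnot3 fl/fl left of Cnot3 +/+ for each gene, and short lines are the means of 2 libraries. The Cd79a points lie between 62.4 and 66.2 FPKM in Cnot3 fl/fl libraries and between 111 and 152 FPKM in Cnot3 +/+ libraries, whereas the Cd22 and Fcer2a points of the genotypes overlap.

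Among the receptor chains, Cd79a was the gene that fell. Cd79a (mm9 chromosome 7, 25682529 to 25687216 in the files' locus column) had 62.4 and 66.2 FPKM in Cnot3 fl/fl libraries, against 111 and 152 FPKM in Cnot3 +/+ libraries. The groups did not overlap, and the Cnot3 +/+ libraries were further from each other than the Cnot3 fl/fl libraries were. Its mean fell by 51.0%, to 64.3 ± 2.70 FPKM in Cnot3 fl/fl libraries, against 131 ± 29.4 FPKM in Cnot3 +/+ libraries (SD, n = 2 each). Its log2 fold change was -1.00 (SE 0.17; limma, adjusted p = 0.042), and 1.08% of the genes tested had a lower one. The q-value of Cd79a was 0.0022 in the authors' deposited table. Without any single library the adjusted p lay between 0.060 and 0.22, and the log2 fold change between -1.23 and -0.77. Without a mean-variance trend in the fit the adjusted p was 0.056. The value of -1.23 (adjusted p = 0.060) was that without Cnot3 +/+ replicate 1.

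Cd79b, the partner chain, did not pass the test. It had 171 and 168 FPKM in Cnot3 fl/fl libraries, against 178 and 235 FPKM in Cnot3 +/+ libraries. The groups did not overlap, but both Cnot3 fl/fl values lay close to Cnot3 +/+ replicate 1, and Cnot3 +/+ replicate 2 was the high library. The log2 fold change was -0.27 (95% interval -0.67 to 0.13; limma, adjusted p = 0.28), and without Cnot3 +/+ replicate 2 it was -0.069. Cd79b lies on mm9 chromosome 11 from 106172654 to 106175843 and was the most abundant of the 9 genes in each of the 4 libraries.

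In these 4 libraries the 2 chains of the heterodimer stood in different proportion, without overlap between the genotypes. The ratio of Cd79a to Cd79b within a library, both per transcript length, was 0.365 and 0.394 in Cnot3 fl/fl libraries, against 0.622 and 0.646 in Cnot3 +/+ libraries. The mean ratio was 0.380 ± 0.0199 in Cnot3 fl/fl libraries and 0.634 ± 0.0172 in Cnot3 +/+ libraries (SD, n = 2 each), so the genotypes were further apart than libraries of 1 genotype. With 2 against 2 libraries a two-sided exact permutation test of 1 value gives p = 0.333, the smallest it can reach, so this is a description. Of the 6 pairs of genes set in ratio, this one and those of Fcrla to Cd79b, of Cd22 to Cd79b and of Cd22 to Cd72 did not overlap between the genotypes. By level, 64.4% of all genes tested did not overlap between the genotypes, counting both directions, and the share over ratios of gene pairs was not computed. The ratio of Cd72 to Cd79b was 0.731 and 0.683 in Cnot3 fl/fl libraries, against 0.765 and 0.644 in Cnot3 +/+ libraries, so the genotypes overlapped. The ratio of Ms4a1 to Cd79b was 0.134 and 0.129 in Cnot3 fl/fl libraries, against 0.169 and 0.118 in Cnot3 +/+ libraries, with overlap as well. The pairs were chosen after the levels were seen, and a ratio within a library shows unequal change and does not say which gene changed.

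**Figure D2:**
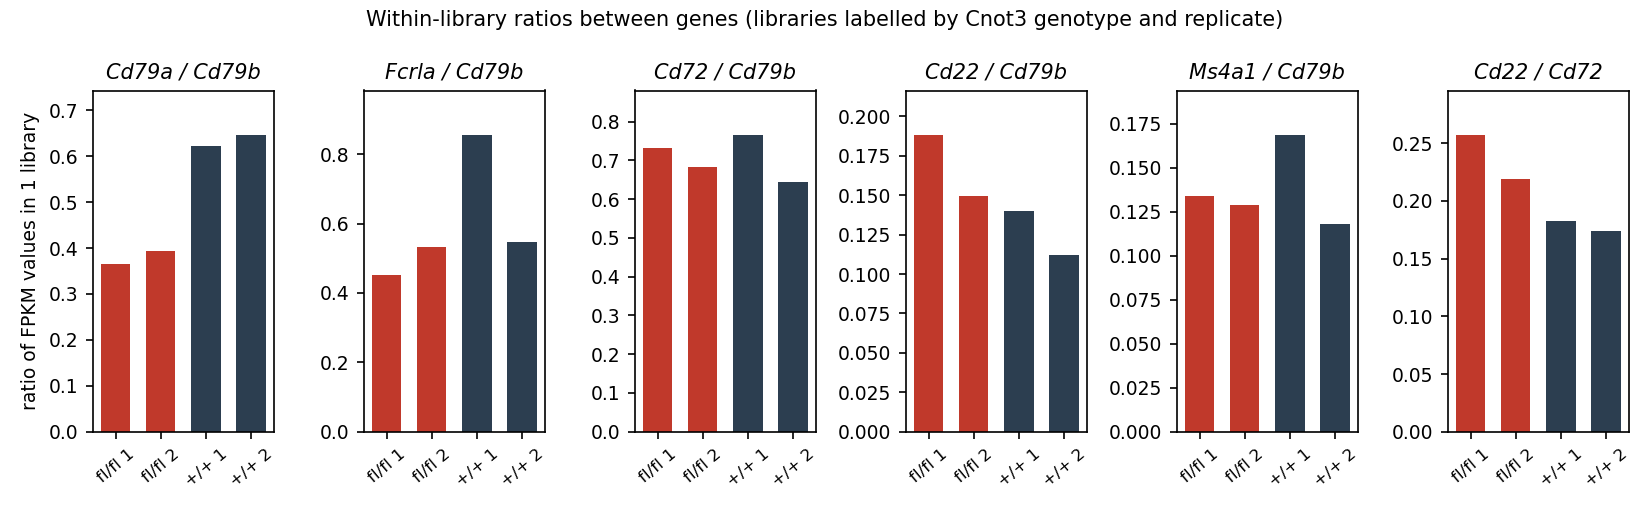
Ratios of FPKM values between pairs of genes within each library, with the Cnot3 fl/fl libraries left of the Cnot3 +/+ libraries; bars start at 0 and each bar is 1 library. Cd79a to Cd79b is 0.365 and 0.394 in Cnot3 fl/fl libraries and 0.622 and 0.646 in Cnot3 +/+ libraries, whereas Cd72 to Cd79b lies between 0.644 and 0.765 in all 4 with overlap.

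The intracellular Fc receptor-like gene Fcrla was the other gene that fell. Fcrla encodes a protein that stays inside B cells, in the endoplasmic reticulum, where it binds immunoglobulin. It had 77.2 and 89.3 FPKM in Cnot3 fl/fl libraries, against 152 and 129 FPKM in Cnot3 +/+ libraries, and the groups did not overlap. Here Cnot3 +/+ replicate 1 was the high library, unlike for Cd79a, where it was replicate 2. The mean fell by 40.7%, to 83.2 ± 8.57 FPKM in Cnot3 fl/fl libraries, against 140.3 ± 16.5 FPKM in Cnot3 +/+ libraries (SD, n = 2 each), with a log2 fold change of -0.74 (SE 0.13; limma, adjusted p = 0.042). The q-value of Fcrla was 0.0053 in the authors' deposited table. Without any single library its adjusted p lay between 0.089 and 0.21, and the log2 fold change was -0.62 (adjusted p = 0.097) when Cnot3 +/+ replicate 1 was left out. The adjusted p was 0.053 with the replicate number as a block and 0.057 without a trend. The ratio of Fcrla to Cd79b was 0.452 and 0.531 in Cnot3 fl/fl libraries, against 0.855 and 0.546 in Cnot3 +/+ libraries, so Cnot3 +/+ replicate 2 lay close to the Cnot3 fl/fl libraries.

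Its surface relative Fcrl1, an activating receptor of B cells, was low and did not pass. Fcrl1 had 6.09 and 6.04 FPKM in Cnot3 fl/fl libraries, against 6.28 and 7.00 FPKM in Cnot3 +/+ libraries (log2 fold change -0.11, 95% interval -0.39 to 0.17; limma, adjusted p = 0.50). The groups did not overlap, but the gap between them was smaller than that between the Cnot3 +/+ libraries.

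The inhibitory co-receptors Cd22 and Cd72 did not pass, and their values went different ways. Cd22, a sialic acid-binding receptor, had 32.1 and 25.1 FPKM in Cnot3 fl/fl libraries, against 24.9 and 26.4 FPKM in Cnot3 +/+ libraries. The groups overlapped, and Cnot3 fl/fl replicate 1 was the high library (log2 fold change 0.15, 95% interval -0.21 to 0.50; limma, adjusted p = 0.49). Without that library the log2 fold change was -0.025. Cd72, a C-type lectin-like receptor, had 125 and 115 FPKM in Cnot3 fl/fl libraries, against 136 and 152 FPKM in Cnot3 +/+ libraries, without overlap (log2 fold change -0.26; limma, unadjusted p = 0.048, adjusted p = 0.14). The ratio of Cd22 to Cd79b was 0.188 and 0.150 in Cnot3 fl/fl libraries, against 0.140 and 0.112 in Cnot3 +/+ libraries. The ratio of Cd22 to Cd72 was 0.257 and 0.219 in Cnot3 fl/fl libraries, against 0.183 and 0.174 in Cnot3 +/+ libraries. In the files' locus column the Cd72 locus overlaps that of Tesk1, and whether the counting used strand was not given in the sources used here, so reads of the neighbours cannot be told apart.

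Ms4a1 encodes CD20, a surface protein of B cells from the pre-B stage onward. It had 22.9 and 21.7 FPKM in Cnot3 fl/fl libraries, against 30.0 and 27.7 FPKM in Cnot3 +/+ libraries. The groups did not overlap, and libraries of 1 genotype were close to each other. Its log2 fold change of -0.36 had a small standard error of 0.08, yet it missed the threshold (limma, unadjusted p = 0.0089, adjusted p = 0.063). Over the 13 alternative settings its adjusted p lay between 0.054 and 0.29 and its log2 fold change stayed negative. The files' Ms4a1 locus spans 103.1 kb and overlaps those of Ms4a5 and 4930526L06Rik, so its reads are uncertain in that respect.

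Genes of later, mature B cells were at the low end. Fcer2a, the low-affinity IgE receptor CD23 of mature B cells, had 5.15 and 6.62 FPKM in Cnot3 fl/fl libraries, against 2.64 and 6.00 FPKM in Cnot3 +/+ libraries. The groups overlapped, and Cnot3 +/+ replicate 1 was the low library (log2 fold change 0.44, 95% interval -0.45 to 1.33; limma, adjusted p = 0.41). Without it the log2 fold change was -0.033. Cr2, the complement receptor CD21 of mature B cells, had 0.599 and 0.528 FPKM in Cnot3 fl/fl libraries, against 0.975 and 0.883 FPKM in Cnot3 +/+ libraries. These values did not overlap but were under the filter, and with no filter on low values the log2 fold change of Cr2 was -0.30 (limma, adjusted p = 0.10). In Cnot3 fl/fl libraries 50.3% to 50.4% of all genes were at or below Cr2, and in Cnot3 +/+ libraries 52.5% to 53.3%.

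**Figure D3:**
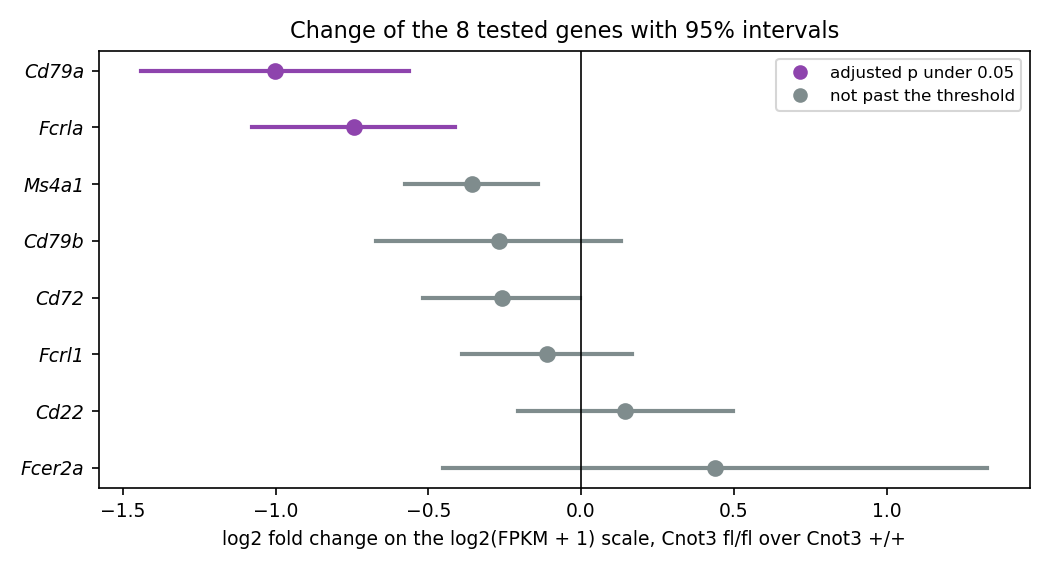
Log2 fold change of the 8 tested genes, Cnot3 fl/fl over Cnot3 +/+, on the log2(FPKM + 1) scale, with 95% intervals from limma. Cd79a at -1.00 and Fcrla at -0.74 pass the threshold, and the intervals of Cd79b, Cd22, Fcrl1 and Fcer2a span 0.

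In order of level, the genes of Cnot3 fl/fl libraries ran from Cd79b through Cd72, Fcrla, Cd79a, Cd22, Ms4a1, Fcrl1 and Fcer2a to Cr2. In these libraries each neighbour in that order was apart from the next without overlap, apart from Fcrl1 and Fcer2a, whose ranges overlapped. In Cnot3 +/+ libraries Cd72, Fcrla and Cd79a, with means of 144, 140.3 and 131 FPKM, overlapped in range and could not be ordered. In Cnot3 fl/fl libraries Cd22 lay above Ms4a1, at 25.1 to 32.1 FPKM and 21.7 to 22.9 FPKM, whereas in Cnot3 +/+ libraries Ms4a1 lay above Cd22, at 27.7 to 30.0 FPKM and 24.9 to 26.4 FPKM. Among all genes, Cd79b stood at or above 98.4% to 98.6% in Cnot3 fl/fl libraries and 98.6% to 99.0% in Cnot3 +/+ libraries, and Cd79a at or above 94.3% in both Cnot3 fl/fl libraries and 97.2% to 98.2% in the Cnot3 +/+ libraries.

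The genes closest in pattern to Cd79a were found by the distance between log2(FPKM + 1) values, each centred on its mean over the 4 libraries, among 6723 other genes averaging at least 10 FPKM. They were Nme2, a nucleoside diphosphate kinase gene, Bcl7a, a chromatin remodelling subunit gene, and Nme1, at distances of 0.10, 0.15 and 0.18. Nme1 and Nme2 are close relatives in sequence, so how their reads were divided is uncertain. Fcrla was at 0.56 from Cd79a, with 3.72% of genes nearer, and Cd79b at 0.74, with 11.1% nearer. For Cd79b the closest were Pdia4, an endoplasmic reticulum disulphide isomerase gene, Dpy30 and Bola2, at 0.029 to 0.032. For Ms4a1 they were Slc35a1, the transporter gene for the sialic acid donor, Arl2bp and Zfp276, at 0.015 to 0.032. These likenesses rest on 4 libraries and are descriptions.

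Around the receptor, the kinase gene Prkcb fell and the kinase genes Lyn and Btk rose. Of 22 genes of receptor-proximal signalling, 2 rose, 1 fell and 19 did not pass, and the list's median log2 fold change was 0.18. Of all genes tested, 6.22% were called higher and 3.28% lower. At an unadjusted p under 0.05, 7 were higher and 4 lower, beside 18.5% and 15.3% of all genes, and the authors' deposited table marked 1 higher and 1 lower. Prkcb, the protein kinase C beta that links the receptor to NF-kappaB, had 43.9 and 44.1 FPKM in Cnot3 fl/fl libraries, against 71.3 and 69.0 FPKM in Cnot3 +/+ libraries (log2 fold change -0.66; limma, adjusted p = 0.028). Lyn, the kinase that phosphorylates the motifs of Cd79a, Cd79b and Cd22, had 146 and 149 FPKM in Cnot3 fl/fl libraries, against 101 and 97.1 FPKM in Cnot3 +/+ libraries (adjusted p = 0.036). Btk, a kinase further along the pathway, had 76.1 and 78.0 FPKM in Cnot3 fl/fl libraries, against 47.0 and 53.6 FPKM in Cnot3 +/+ libraries (adjusted p = 0.040). Both Lyn and Btk are also expressed in myeloid and dendritic cells. Vav2, an exchange factor for small GTPases, had 52.5 and 45.7 FPKM in Cnot3 fl/fl libraries, against 69.5 and 65.1 FPKM in Cnot3 +/+ libraries, and missed the threshold (limma, adjusted p = 0.059). The calls of Lyn and Btk were lost without a trend in the fit. Syk, which docks on the phosphorylated chains, and the adaptor Blnk, named after their values were seen, did not pass, at log2 fold changes of 0.01 and 0.05. Cd81, the tetraspanin partner of Cr2, also named after its values were seen, had 8.20 and 9.43 FPKM in Cnot3 fl/fl libraries, against 14.6 and 25.8 FPKM in Cnot3 +/+ libraries (adjusted p = 0.075).

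On the inhibitory side, the phosphatase genes Ptpn6 and Inpp5d rose, whereas the receptor genes Cd22 and Cd72 did not pass the test. Of 15 other inhibitory receptors and phosphatases measured, 4 rose, 0 fell and 11 did not pass, with a median log2 fold change of -0.02. The shares over all genes tested were 6.22% called higher and 3.28% called lower. At an unadjusted p under 0.05, 5 were higher and 2 lower, beside 18.5% and 15.3% of all genes, and the authors' deposited table marked 2 higher and 0 lower. The 2 lower genes, named after their values were seen, were Fcgr2b and Ptpn11. Their log2 fold changes were -0.36 and -0.23 (limma, adjusted p = 0.053 and 0.11). In the list 7 log2 fold changes were positive and 8 negative. Ptpn6, the phosphatase that Cd22 and Cd72 recruit, had 851 and 881 FPKM in Cnot3 fl/fl libraries, against 523 and 481 FPKM in Cnot3 +/+ libraries (log2 fold change 0.79; limma, adjusted p = 0.040). Inpp5d, which encodes the lipid phosphatase SHIP-1, had 162 and 174 FPKM in Cnot3 fl/fl libraries, against 121 and 116 FPKM in Cnot3 +/+ libraries (adjusted p = 0.042). The receptor genes Lilrb4 and Cd5 were low, with means of 7.09 and 11.2 FPKM in Cnot3 fl/fl libraries and 1.57 and 4.64 FPKM in Cnot3 +/+ libraries, and rose by 1.63 and 1.10 on the log2 scale (limma, adjusted p = 0.036 and 0.045). Calls of both Inpp5d and Cd5 were lost with the replicate number as a block and without a trend. Ptpn6, Inpp5d and Lilrb4 are also expressed in myeloid cells.

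**Figure D4:**
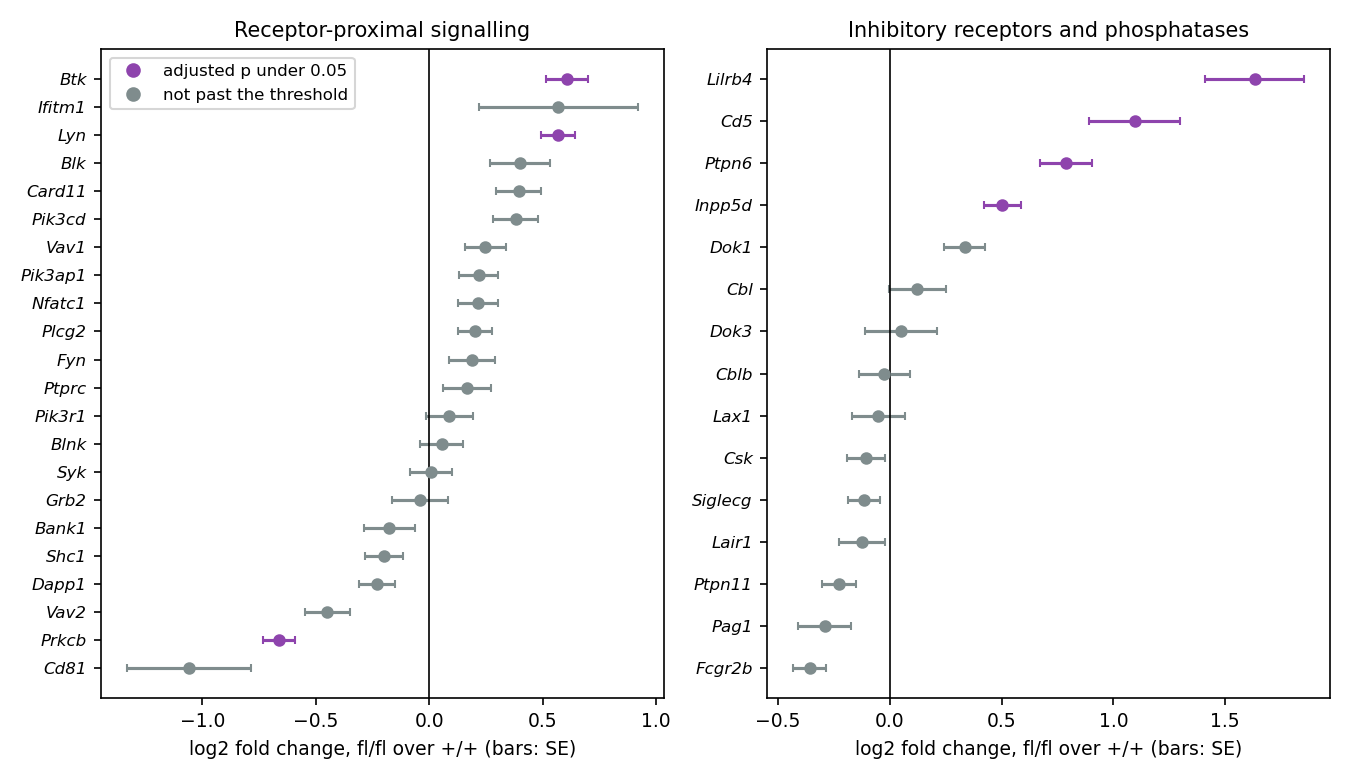
Log2 fold changes, Cnot3 fl/fl over Cnot3 +/+, of 22 genes of receptor-proximal signalling and 15 inhibitory receptors and phosphatases; bars are standard errors from limma and colour marks an adjusted p under 0.05. Prkcb on the negative side and Lyn, Btk, Ptpn6, Inpp5d, Cd5 and Lilrb4 on the positive side pass the threshold.

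Of 27 other surface genes of B cells tested, 1 fell, 0 rose and 26 did not pass, beside 3.28% of all genes called lower and 6.22% higher. At an unadjusted p under 0.05, 4 were lower and 3 higher, beside 15.3% and 18.5% of all genes, and the authors' deposited table marked 2 as lower and 1 as higher. The gene that fell, Cd200, an immunoglobulin-family glycoprotein, had 21.1 and 22.8 FPKM in Cnot3 fl/fl libraries, against 45.8 and 41.1 FPKM in Cnot3 +/+ libraries (log2 fold change -0.96; limma, adjusted p = 0.024). Cd24a, Ly6d and Cxcr5 did not pass, with values of -1.30, -0.62 and 0.48 for the same quantity (adjusted p = 0.066, 0.077 and 0.061).

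Among 20 measured transcription factors of the B lineage, 1 fell, 1 rose and 18 did not pass, with a median log2 fold change of -0.28. Beside these counts, and those of the surrogate light chain genes below, 3.28% of all genes tested were called lower and 6.22% higher. At an unadjusted p under 0.05, 8 were lower and 2 higher, beside 15.3% and 18.5% of all genes, and the authors' deposited table marked 4 as lower and 1 as higher. That table marked 2.51% of the genes it tested as lower and 4.08% as higher. Pax5, which binds the Cd79a promoter, had 12.5 and 9.62 FPKM in Cnot3 fl/fl libraries, against 22.5 and 33.8 FPKM in Cnot3 +/+ libraries (log2 fold change -1.26; limma, adjusted p = 0.045). The adjusted p of Pax5 was 0.055 with the replicate number as a block and 0.061 without a trend. Ebf1 had 5.58 and 5.83 FPKM in Cnot3 fl/fl libraries, against 12.0 and 25.7 FPKM in Cnot3 +/+ libraries, and Runx1 a log2 fold change of -0.43; neither passed (adjusted p = 0.065 and 0.067). When Cnot3 +/+ replicate 1 was left out, Ebf1 was the 1 factor called, with a log2 fold change of -1.99 (adjusted p = 0.039). For Pax5, Ebf1 and Cd79a alike, Cnot3 +/+ replicate 2 was the high library. Sfpi1, which encodes PU.1, a factor of myeloid and B-lineage cells, rose, with 88.2 and 94.3 FPKM in Cnot3 fl/fl libraries and 51.5 and 50.1 FPKM in Cnot3 +/+ libraries (adjusted p = 0.024). The surrogate light chain genes, whose products pair with the heavy chain beside Cd79a and Cd79b, had more negative log2 fold changes than Cd79a, with 3 of 4 past the threshold, a median log2 fold change of -2.59 and all 4 marked lower in the authors' deposited table. Vpreb1 had 9.89 and 7.21 FPKM in Cnot3 fl/fl libraries, against 65.3 and 131.9 FPKM in Cnot3 +/+ libraries (log2 fold change -3.31; limma, adjusted p = 0.029). Without any single library its log2 fold change lay between -3.81 and -2.81, and its call depended on which library was left out. Vpreb3 was at -2.41 and Igll1 at -2.77 in the same measure, with adjusted p = 0.041 and 0.042. Both calls were lost without a trend and in a robust fit, and that of Igll1 also with the replicate number as a block. Vpreb2, at -2.12, did not pass (adjusted p = 0.069) but was called without Cnot3 +/+ replicate 1 (adjusted p = 0.048). Vpreb1, Vpreb3 and Igll1 were each higher in Cnot3 +/+ replicate 2 than in replicate 1, as Cd79a was, and Igll1 had 21.0 and 9.81 FPKM in Cnot3 fl/fl libraries, against 75.6 and 144 FPKM in Cnot3 +/+ libraries. Igj, a joining chain gene of plasma cells and the only immunoglobulin chain of the list in the table, had 42.0 and 98.6 FPKM in Cnot3 fl/fl libraries, against 49.4 and 389 FPKM in Cnot3 +/+ libraries, and was also highest in that library.

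Markers of pro-B cells and of other cells that the gate could hold are given here, and their part in the results was not tested. Beside the counts of called markers, 3.28% of all genes tested were called lower and 6.22% higher. The 9 pro-B markers summed to 545 and 525 FPKM in Cnot3 fl/fl libraries, against 639.5 and 820.0 FPKM in Cnot3 +/+ libraries, with 3 of 9 lower, Vpreb1, Igll1 and Pax5. Of these 9 markers, 7 had negative and 2 positive log2 fold changes. Dntt did not pass but was higher without overlap. It had 244 and 255 FPKM in Cnot3 fl/fl libraries, against 216 and 217 FPKM in Cnot3 +/+ libraries. The 12 plasmacytoid dendritic cell markers summed to 6984 and 8446 FPKM in Cnot3 fl/fl libraries, against 7744 and 8036 FPKM in Cnot3 +/+ libraries, with 1 higher, Tlr7, and 1 lower, Cox6a2. The classical dendritic markers summed to 593 and 756 FPKM in Cnot3 fl/fl libraries, against 505 and 522 FPKM in Cnot3 +/+ libraries, with Zbtb46 and Clec9a higher and Clec10a lower among 8 tested and Xcr1 at or below 0.15 FPKM in each library. The neutrophil and monocyte markers summed to 295 and 219 FPKM in Cnot3 fl/fl libraries, against 208 and 289.7 FPKM in Cnot3 +/+ libraries, with 3 of 14 tested higher, Itgam, Ctsg and Elane. Of these 14 markers, 9 had positive and 5 negative log2 fold changes. Camp did not pass but was lower without overlap, at -0.58 (limma, adjusted p = 0.11). Ctsg and Elane were low. Their means were 4.03 and 5.06 FPKM in Cnot3 fl/fl libraries, against 0.935 and 1.95 FPKM in Cnot3 +/+ libraries. The T, NK and innate lymphoid markers summed to 1111 and 988 FPKM in Cnot3 fl/fl libraries, against 819.9 and 748 FPKM in Cnot3 +/+ libraries, with 2 of 16 higher, Cd8a and Cd8b1. The other 14 of these markers summed to 814 and 665 FPKM in Cnot3 fl/fl libraries, against 771 and 661 FPKM in Cnot3 +/+ libraries, and overlapped. Among them the T-cell receptor complex genes Cd3d, Cd3e and Cd3g had log2 fold changes of -0.16, -0.19 and -0.55, and none of the 3 passed (adjusted p = 0.84, 0.77 and 0.35). Klrd1, Ncr1 and Gzmb, also among them, were higher without overlap, at log2 fold changes of 0.91, 0.96 and 0.84. These did not pass either (limma, adjusted p = 0.062, 0.18 and 0.12). Of all 16 markers, 8 had positive and 8 negative log2 fold changes, and the authors' deposited table marked 5 as higher and 0 as lower. Of 9 mature B markers 1 was higher, H2-Ob, of 8 plasma cell markers 1 was lower, Sdc1, and of 3 tested erythroid markers none passed (limma; none at an unadjusted p under 0.05). No marker of these lists was listed at 0 in a library. Over the 9 alternative settings that kept all libraries, Cox6a2 passed in 4, Clec9a and Igll1 in 5, and Clec10a, Itgam, Tlr7 and Pax5 in 6. The authors' deposited table marked 5 pro-B and 3 plasma cell markers lower, with 0 higher. It marked 4 classical dendritic markers and 1 mature B marker higher, with 0 lower. Neutrophil and monocyte markers had 5 higher and 1 lower, and plasmacytoid ones 1 higher and 1 lower.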

How the data were processed

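The authors deposited a table of FPKM values for each library and a comparison table with p-values, q-values and an FPKM value per genotype, per the file headers. The submitters' processing notes list the build mm9 and, with no roles, Cuffnorm 2.2.1, Cufflinks 2.2.1, TopHat2 2.0.13, Bowtie2 2.2.3.0 and bcl2fastq 1.8.4. The annotation used, any filters and how libraries were scaled were not given in the sources used here. FPKM values are not counts, so no count test was run. Each level is relative to the fragments of its library and not an absolute amount, and any further scaling between libraries is unknown.

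Genes averaging at least 1 FPKM, 11017 in all, were tested on log2(FPKM + 1) values with limma 3.58.1 in R 4.3.3, two-sided, with genotype alone in the model and a mean-variance trend. Benjamini-Hochberg adjustment covered all of these genes. This scale understates the change of low genes. Each gene had 2 residual degrees of freedom, and the prior added 2.69. The procedure was tested on simulated data. The p-values rest on the spread between these mice, moderated by the spread of the other genes tested. Within Cnot3 +/+ that spread includes any effect of the difference in sex-linked genes between replicates 1 and 2. Members and lists were chosen with earlier results of these data known. All 9 members are named. A further gene was left out of the lists and is not reported here. The motifs were picked from known Cd79a biology after values were seen, and an octamer and a TATA motif, also searched, are not shown. From the signalling, inhibitory, surface and factor lists the genes past the threshold and up to 4 with the smallest p were named, and from the marker lists those past the threshold. The markers Dntt, Camp, Xcr1, Cd3d, Cd3e, Cd3g, Klrd1, Ncr1 and Gzmb were named outside that rule, after their values were seen. Depth was estimated from genes under 0.3 FPKM, as the ratio of values shared within 0.5% by most genes, and it held for 9.33% to 13.2% of them. Promoter windows came from RefSeq on GRCm38.p6 and files' coordinates from mm9. The sources used here do not say if starts in the files count from 0 or 1.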

Additional observations from a re-analysis of the deposited data

How the results depend on the processing

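Over 13 alternative settings, chosen with earlier results known, the log2 fold changes of Cd79a, Cd79b, Cd72, Ms4a1, Fcrla and Fcrl1 stayed negative. Those of Cd22 and Fcer2a changed sign in 1 setting each, Cd22 to -0.025 without Cnot3 fl/fl replicate 1 and Fcer2a to -0.033 without Cnot3 +/+ replicate 1. With each library left out in turn, Cd22 ranged from -0.025 to 0.32 and Fcer2a from -0.033 to 0.91. Cd79a passed in 7 of the 13 and Fcrla in 6, and the cause of the lost calls was not tested. With no filter on low values, where more genes are tested, the adjusted p was 0.081 for Cd79a and 0.079 for Fcrla. Without a trend it was 0.056 for Cd79a and 0.057 for Fcrla. All genes called numbered 685 higher and 361 lower. They numbered 4 and 1 with no filter, where 0 were called in each list, and 242 and 69 without a trend. Without a trend 0 members were called, the signalling list had 0 higher, the inhibitory list 2 higher and the factor list 0 lower. A minimum mean of 5 FPKM, quantile normalization and a robust fit each gave 1 lower gene in the inhibitory list and 2 lower among the other surface genes, and the last 2 settings gave 1 higher surface gene. The robust fit gave 2 lower signalling genes.

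Without 1 library in turn, all genes called ranged from 2 to 34 higher and from 0 to 20 lower. In each of these 4 fits the members called lower ranged from 0 to 0, and so did the calls of the signalling list in both directions, the inhibitory list and the surface list. The factor list had 0 higher and from 0 to 1 lower. In these fits the lone library of a genotype is assumed to vary like the others.

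With the replicate number as a block, 456 genes were called higher. This left 1 member called lower, Cd79a, with adjusted p = 0.053 for Fcrla, 2 signalling genes lower, 2 inhibitory genes higher and 0 factors lower. The deviations of same-numbered libraries had r = 0.144 across genes, and with 2 pairs the numbers were not taken to pair the mice. The absolute depth is unknown, so no limit set by depth is given.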
